A study of Mus musculus with 24 samples.

Results

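The catalytic core of Polycomb repressive complex 1 (PRC1) is encoded by 8 mouse genes, the RING1 genes Ring1 and Rnf2 and the PCGF genes Pcgf1, Pcgf2, Pcgf3, Bmi1, Pcgf5 and Pcgf6. These 8 genes were taken by symbol from the 19409 symbols (20633 rows) of a cRNA-seq gene table, in which each of them had 1 row. Calibrated RNA-seq (cRNA-seq) counts the reads of each gene relative to Drosophila SG4 cells that were mixed with the mouse cells, so that levels are calibrated to cell number. A pair of lines of E14 mouse embryonic stem cells (ESCs), grown on gelatin with serum and LIF, was compared. PRC1CKO cells carry Ring1a-/-, Ring1bfl/fl and Rosa26::ERT2-Cre, so that they lack RING1A from the outset and lose RING1B when 4-hydroxytamoxifen (OHT) activates the recombinase. PRC1CPM cells carry Ring1a with I50A/D53K, Ring1b(WT->I53A/D56K)fl/fl and Rosa26::ERT2-Cre, so that OHT replaces wild-type RING1B by a form without catalytic activity in cells whose RING1A is also catalytically inactive. Untreated (UNT) cells and cells treated with 800 nM OHT for 72 h were measured in 3 replicates of each line, which gives 12 RNA libraries. Each line is 1 clone (B9 for PRC1CKO and 41 for PRC1CPM), so that a difference between the lines and a difference between the clones cannot be told apart, and no OHT-treated cells without the engineered alleles were part of these libraries.

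PRC1 is an E3 ubiquitin ligase that places ubiquitin on a lysine in the tail of histone H2A (H2AK119ub1) and represses developmental genes in ESCs. Every PRC1 complex holds RING1A (from Ring1) or RING1B (from Rnf2), whose RING domain carries the catalytic activity, together with a single PCGF protein, and the PCGF protein sets which further subunits are bound. PCGF2 (MEL18) and BMI1 (also called PCGF4) assemble canonical PRC1 with CBX and PHC proteins, while PCGF1, PCGF3, PCGF5 and PCGF6 assemble variant complexes with RYBP or YAF2. PCGF2 and BMI1 can also be part of variant complexes.

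The engineered sites in Ring1 and Rnf2 are shown first, since they set what a gene-body read count can say of each genotype. The following 20-base guide sequences were used to make the lines, printed 5′ to 3′ in lower case with the adjoining PAM of the genome (GRCm38) in capitals.
RING1A guide 3 (PRC1CKO): ctcagcggagccccgcttggAGG
RING1A guide 4 (PRC1CKO): gcgaccgtgcagctgacgttGGG
RING1B guide 6 (PRC1CKO): gatcagtgaagctagcgatgTGG
RING1B guide 7 (PRC1CKO): ttgcaggctaagaccacattAGG
RING1A guide 1 (PRC1CPM): ttcagcatgtccaggcagatGGG
RING1B guide 1 (PRC1CPM): attaatgtgcccaatttgttTGG
Each guide had 1 exact match next to a PAM on its gene's chromosome. RING1A guides 3 (chr17:34024393-34024412, minus strand, exon 2 of Ring1) and 4 (chr17:34022878-34022897, minus strand, an intron, 99 bases from exon 4) enclose 1515 bases, which hold part of exon 2, the whole of exons 3 and 4, and 39.0% of the Ring1 gene body. Exons are numbered as in the RefSeq transcript, whose exon 1 holds no coding sequence, so that these are exons 1 to 3 when coding exons alone are counted. RING1B guides 6 (chr1:151479377-151479396, minus strand) and 7 (chr1:151478206-151478225, plus strand), used to insert the LoxP sites, enclose 1157 bases with exon 2, which is 3.68% of the Rnf2 gene body. The guides shown for PRC1CPM lie in exon 3 of Ring1 (chr17:34023365-34023384, plus strand) and exon 3 of Rnf2 (chr1:151476957-151476976, minus strand), where point mutations were placed in Ring1 and a cassette was inserted in Rnf2. The cassette carries a recoded wild-type exon 3 and, behind it in reverse, a recoded exon 3 with the mutations, which the recombinase turns round. Whether reads from the recoded exons were counted was not tested, and exon 3 is 161 bases or 5.02% of the exon bases of Rnf2. Because reads were counted over whole gene bodies, 2374 bases of Ring1 and 30261 bases of Rnf2 remain countable in PRC1CKO cells when these intervals are gone. The counts therefore check neither the Ring1 deletion nor the excision in Rnf2, and the sequence of the alleles was not analysed here.

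The depth of the libraries was 14668159 to 27016156 reads on genes. A gene with 3 reads would have a normalised read count (reads divided by the spike-in size factor of the library) of 2.31 to 4.47, and all 8 core genes lay far above this floor and passed the filter of 10 reads in at least 3 libraries. The lowest number of reads behind any core gene value was 92, for Ring1 in replicate 3 of untreated PRC1CPM cells. The libraries with the number 1 had the highest summed normalised read counts in every condition, for example 2.50e+07 against 1.76e+07 and 1.78e+07 in untreated PRC1CKO cells, and this moves with the higher values of several core genes in them. Its part in these values was not tested. In bulk libraries, fewer cells with a transcript and less transcript per cell cannot be told apart.

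Ring1 (NM_009066, chr17:34020792-34024680, minus strand, 7 exons) had normalised read counts of 313, 204 and 166 in untreated and 281, 251 and 229 in OHT-treated PRC1CKO cells. In PRC1CPM cells it had 179, 182 and 125 without and 161, 111 and 148 with OHT. Treatment groups overlapped in both lines, with a log2 fold change of 0.20 (95% interval -0.40 to 0.80) in PRC1CKO and -0.20 (-0.80 to 0.40) in PRC1CPM cells. Ring1 transcript reads were thus present in PRC1CKO cells, which are labelled Ring1a-/-, at a mean of 227 ± 76.3 (SD, n = 3) before treatment, and not below the 162 ± 32.2 of PRC1CPM cells.

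Rnf2 (NM_011277, chr1:151469406-151500823, minus strand, 7 exons), the RING1B gene that OHT alters in both lines, had 1756, 1436 and 1385 in untreated and 1489, 1565 and 1585 in OHT-treated PRC1CKO cells. In PRC1CPM cells it had 1850, 1659 and 1578 without and 1724, 1295 and 1513 with OHT. The groups overlapped in both lines. The log2 fold change was 0.03 (-0.40 to 0.45, limma adjusted p = 0.963) in PRC1CKO and -0.17 (-0.60 to 0.25, adjusted p = 0.763) in PRC1CPM cells. Neither passed the threshold.

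Among the 6 PCGF genes, Bmi1 was raised by OHT treatment in both lines, 5.39-fold in PRC1CKO and 2.52-fold in PRC1CPM cells, and the other PCGF genes were not called. Bmi1 (NM_007552, chr2:18677018-18686629, plus strand, 10 exons) encodes a canonical PRC1 subunit that is best known for repressing the Ink4a/Arf locus and for maintaining stem cells of adult tissues. Its normalised read counts were 161, 98.5 and 154 in untreated and 760, 703 and 728 in OHT-treated PRC1CKO cells. In PRC1CPM cells they were 183, 146 and 214 without and 523, 319 and 552 with OHT. Treated and untreated groups did not overlap in either line, and the OHT-treated PRC1CKO libraries were higher than every OHT-treated PRC1CPM library. The log2 fold change was 2.43 ± 0.28 (SE, n = 3 per group, limma adjusted p = 5.64e-10) in PRC1CKO and 1.33 ± 0.28 (adjusted p = 0.000276) in PRC1CPM cells, with 95% intervals of 3.67-fold to 7.92-fold and 1.71-fold to 3.70-fold. The values rest on 108 to 182 reads per untreated and 759 to 841 reads per treated PRC1CKO library.

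**Figure D1:**
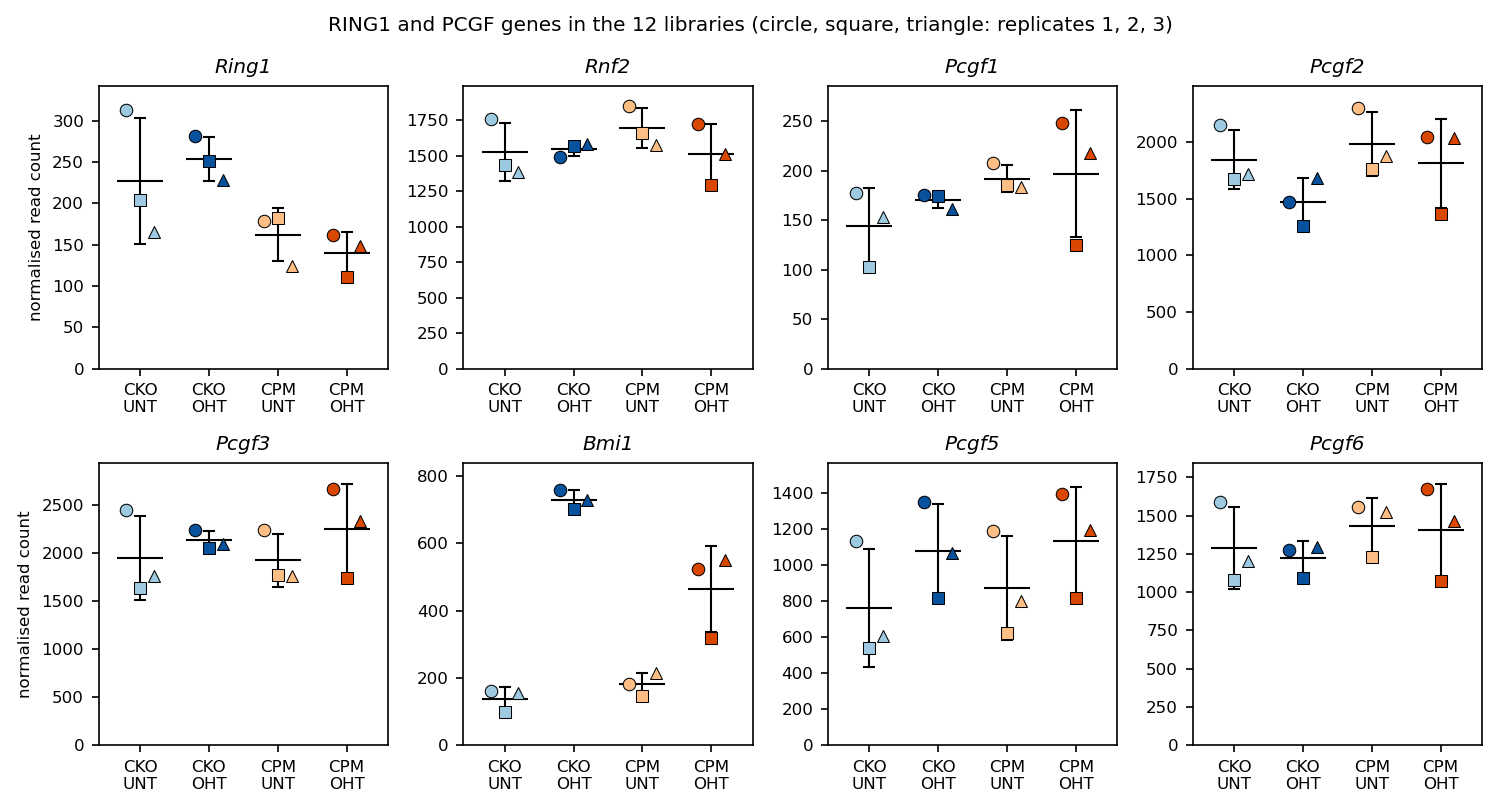
Normalised read count (y axis, from 0) of the 8 core genes in each library, grouped by line and treatment on the x axis, with circles, squares and triangles for replicates 1, 2 and 3, long bars for means and error bars for the SD (n = 3). Bmi1 lies between 98.5 and 214 in the untreated and between 319 and 760 in the OHT-treated libraries, while the treated and untreated groups of the other 7 genes overlap in each line.

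With Bmi1, 1 of the 8 core genes was called higher (more than 1.5-fold, with an adjusted p below 0.05) and 0 lower in PRC1CKO cells after OHT treatment, where 19.5% of the 16940 genes tested were called (16.5% higher and 3.09% lower). In PRC1CPM cells the same count was 1 higher and 0 lower, where 14.5% of all genes were called (13.1% higher and 1.4% lower). With TMM in place of the spike-in scale, 2845 genes were called higher and 1133 lower in PRC1CKO cells (2787 and 524 on the spike-in scale) and 2396 and 594 in PRC1CPM cells (2226 and 237). With the replicate numbers as a block, 3033 and 461 genes were called in PRC1CPM cells. A single called gene of 8 is near the background in either line. Groups did not overlap for 1 core gene in each line, Bmi1, against 30.6% of all genes in PRC1CKO and 22.4% in PRC1CPM cells. Over the 8 genes, log2 fold changes had a median of 0.18 in PRC1CKO and -0.04 in PRC1CPM cells, beside 0.12 and 0.10 over all genes tested. The rise of Bmi1 was exceeded by 697 genes (4.11%) in PRC1CKO and by 1518 genes (8.96%) in PRC1CPM cells. The 2 lines' responses share no library, and their log2 fold changes for Bmi1 are compared further down through the interaction.

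Pcgf2 (NM_001163307, chr11:97688823-97699384, minus strand), which encodes the other canonical PCGF protein, had 2151, 1677 and 1718 in untreated and 1473, 1264 and 1684 in OHT-treated PRC1CKO cells. In PRC1CPM cells it had 2305, 1767 and 1877 without and 2048, 1362 and 2036 with OHT. The groups overlapped in both lines, in PRC1CKO cells through the third treated library alone. The log2 fold change was -0.33 (-0.77 to 0.11, adjusted p = 0.365) in PRC1CKO and -0.14 (adjusted p = 0.827) in PRC1CPM cells by limma, and neither passed the threshold. In PRC1CKO cells it was -0.45 with TMM (limma adjusted p = 0.00381) and -0.33 with the replicate numbers as a block (adjusted p = 0.0388), both at less than 1.5-fold.

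Of the 4 PCGF genes of the variant complexes, 0 were called in either line, where 19.5% (PRC1CKO) and 14.5% (PRC1CPM) of all genes were. Pcgf5 (NM_029508, chr19:36379067-36456204, plus strand), whose protein forms variant PRC1 with AUTS2 and casein kinase 2, had 1137, 542 and 608 in untreated and 1350, 820 and 1067 in OHT-treated PRC1CKO cells, and 1192, 624 and 801 against 1399, 816 and 1197 in PRC1CPM cells. In each line the groups overlapped, and in each condition replicate 1 was highest and replicate 2 lowest. Its log2 fold change was 0.55 ± 0.26 (SE, 95% interval 0.02 to 1.08, unadjusted p = 0.0411, adjusted p = 0.154 by limma) in PRC1CKO and 0.40 (-0.13 to 0.93, adjusted p = 0.429) in PRC1CPM cells. Without replicate 1 of untreated PRC1CKO cells, the former was 0.88 with an adjusted p of 0.00792, which would be called. Every treated library was higher than the untreated library of the same line and number. With the replicate numbers as a block, the limma adjusted p was 0.000481 in PRC1CKO and 0.0195 in PRC1CPM cells, at less than 1.5-fold, so that Pcgf5 was still not called.

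Pcgf3 (NM_172716, chr5:108461332-108503099, plus strand), the close relative of Pcgf5, had means of 1943 ± 437 and 2128 ± 97.1 in untreated and treated PRC1CKO cells and of 1921 ± 274 and 2246 ± 467 in PRC1CPM cells. Pcgf1 (NM_197992, chr6:83078390-83080855, plus strand), which brings KDM2B and BCOR to variant PRC1, had 144 ± 38.2 and 170 ± 7.71 in PRC1CKO and 192 ± 13.2 and 197 ± 64.5 in PRC1CPM cells. Pcgf6 (NM_027654, chr19:47033619-47050845, minus strand), which acts with MGA, MAX, E2F6 and L3MBTL2, had 1289 ± 267 and 1221 ± 112 in PRC1CKO and 1435 ± 180 and 1403 ± 306 in PRC1CPM cells. For these 3 genes the limma log2 fold changes lay between -0.06 and 0.27, with adjusted p of 0.648 or more, and their treated and untreated groups overlapped in both lines.

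**Figure D2:**
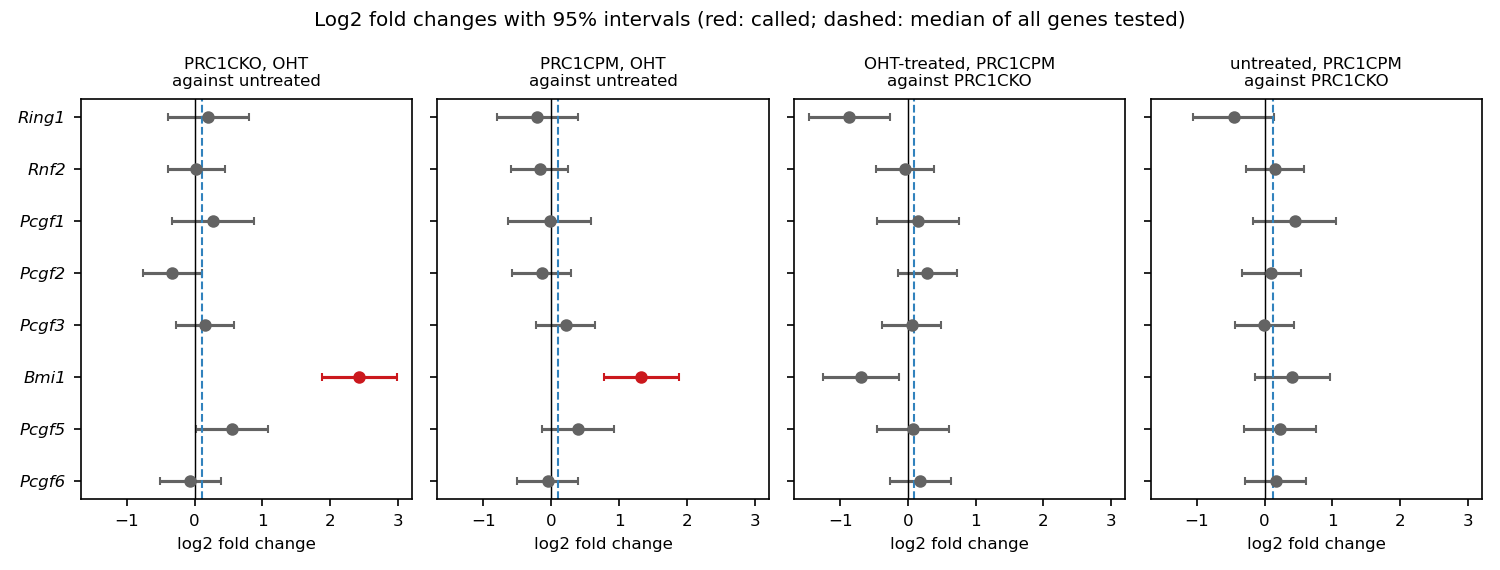
Log2 fold change (x axis) of each core gene (y axis) in the 4 comparisons, with 95% intervals from limma over the 12 libraries. Red marks Bmi1 after OHT treatment, 2.43 in PRC1CKO and 1.33 in PRC1CPM cells, the called values, and the dashed line is the median of all genes tested.

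The OHT-treated lines were compared next, which contrasts catalytically inactive PRC1 with its loss. Of the 8 genes, 0 were called, where 1.47% of all genes were (1.25% higher and 0.218% lower in PRC1CPM cells). By unadjusted p under 0.05, 1862 genes differed, and of the core genes Ring1 and Bmi1 were among them. DESeq2 and edgeR also called 0 of the 8. Ring1 was lower in PRC1CPM cells by a log2 fold change of -0.86 (-1.46 to -0.27, limma adjusted p = 0.156), and the 3 libraries of each line did not overlap. In PRC1CKO cells 39.0% of its gene body lies between the deletion guides, so that unlike lengths are compared, and before treatment the value was -0.46. Per kb of the bases left, treated PRC1CKO cells had 107 ± 11.1, beside 36.0 ± 6.64 per kb of the whole body in treated PRC1CPM cells. Bmi1 was lower by -0.69 (-1.25 to -0.14, adjusted p = 0.267), again without overlap. Groups that did not overlap made up 16.3% of all genes in this comparison, and 1.17% and 2.03% of genes had a lower log2 fold change than Ring1 and Bmi1. With TMM in place of the spike-in scale, both passed the threshold, Ring1 at -0.96 (adjusted p = 0.00465) and Bmi1 at -0.79 (adjusted p = 0.0156). With TMM 523 genes were called higher and 260 lower in PRC1CPM cells, against 212 and 37 on the spike-in scale. With the replicate numbers as a block, Ring1 (-0.86, adjusted p = 0.000393) and Bmi1 (-0.69, adjusted p = 0.00166) also passed the threshold, among 1131 genes called higher and 232 lower. The other 6 genes had log2 fold changes of -0.04 to 0.29.

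Before treatment, 0 of the 8 genes were called between the lines, where 2.69% of all genes were (2.21% higher and 0.478% lower in PRC1CPM cells), and 2391 genes but 0 core genes had an unadjusted p under 0.05 by limma. DESeq2 and edgeR called 0 of the 8 as well. TMM called 744 genes higher and 305 lower, against 374 and 81, and the replicate block 1631 and 253, with 0 core genes in either. Ring1 differed by -0.46 (-1.06 to 0.14, limma adjusted p = 0.561) with overlapping libraries, and Bmi1 by 0.41 (-0.15 to 0.96, adjusted p = 0.595). Pcgf1 was the core gene whose untreated libraries did not overlap between the lines (177, 102 and 153 in PRC1CKO and 207, 186 and 183 in PRC1CPM cells, log2 fold change 0.44, adjusted p = 0.598), against 11.8% of all genes.

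The difference between the treatment responses of the lines was tested as an interaction, the log2 fold change in PRC1CPM minus that in PRC1CKO cells. For Bmi1 it was -1.10 ± 0.39 (SE, 95% interval -1.88 to -0.31, unadjusted p = 0.00704), and after adjustment over all genes the limma p was 1. Without a block it thus did not pass the threshold, which 0.0236% of all genes did (4 genes, all lower), while 497 genes had an unadjusted p under 0.05. DESeq2 called 15 genes lower, TMM 14, edgeR 4 and limma without the filter 0, and the count of calls thus depends on the processing. With the replicate numbers as a block, 78 genes were called higher and 246 lower. Bmi1 passed the threshold in that fit (-1.10, limma adjusted p = 0.00164). For the other 7 core genes the interaction lay between -0.40 (Ring1) and 0.18 (Pcgf2).

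To compare genes with each other, levels were divided by length. Per kb of gene body, Pcgf2 had the highest normalised read count of the 8 genes in all 4 conditions, from 140 in OHT-treated PRC1CKO to 188 in untreated PRC1CPM cells, and its libraries did not overlap those of the next gene. In untreated PRC1CKO cells the order was Pcgf2 (175), Pcgf6 (74.8), Ring1 (58.5), Pcgf1 (58.5), Rnf2 (48.6), Pcgf3 (46.5), Bmi1 (14.3) and Pcgf5 (9.88), where Pcgf6, Ring1, Pcgf1 and Rnf2 each overlapped the next gene and Bmi1 overlapped Pcgf5, while Pcgf3 and Bmi1 did not overlap. After OHT treatment, Bmi1 stood in second place in these cells with 76.0, overlapping Pcgf6 (70.9), which was followed by Pcgf1 (69.0), Ring1 (65.2), Pcgf3 (51.0), Rnf2 (49.2) and Pcgf5 (14.0). These levels count the whole gene body, while 39.0% of that of Ring1 lies between the deletion guides in all PRC1CKO cells. Over the remaining bases, a length chosen after the values were seen, Ring1 had 95.8 ± 32.1 in untreated and 107 ± 11.1 in treated PRC1CKO cells, which would place it second, and in the untreated cells its libraries overlapped those of Pcgf6. Among all genes tested, Bmi1 went from percentile 44.0 to 81.3 of the level per kb in PRC1CKO cells.

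In untreated PRC1CPM cells, Bmi1 had 18.8 per kb of gene body, below Pcgf2 (188), Pcgf6 (83.3), Pcgf1 (77.8), Rnf2 (54.0), Pcgf3 (46.0) and Ring1 (41.6) and above Pcgf5 (11.3). With OHT it reached 48.3, between Pcgf3 (53.8) and Rnf2 (48.1) and overlapping both. Its percentile among all genes went from 47.8 to 69.3. Gene-body lengths weigh introns and exons alike, and per kb of exon the orders differ: Pcgf2 (744), Pcgf6 (597) and Rnf2 (476) led in untreated PRC1CKO cells and Bmi1 (38.3) was last, and after treatment Bmi1 (203) followed Pcgf3 (277). In OHT-treated PRC1CPM cells, Bmi1 had 129 per kb of exon, above Ring1 alone (68.9). Pcgf2 had the highest mean per kb of exon too, but its libraries overlapped those of Pcgf6 in all 4 conditions.

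**Figure D3:**
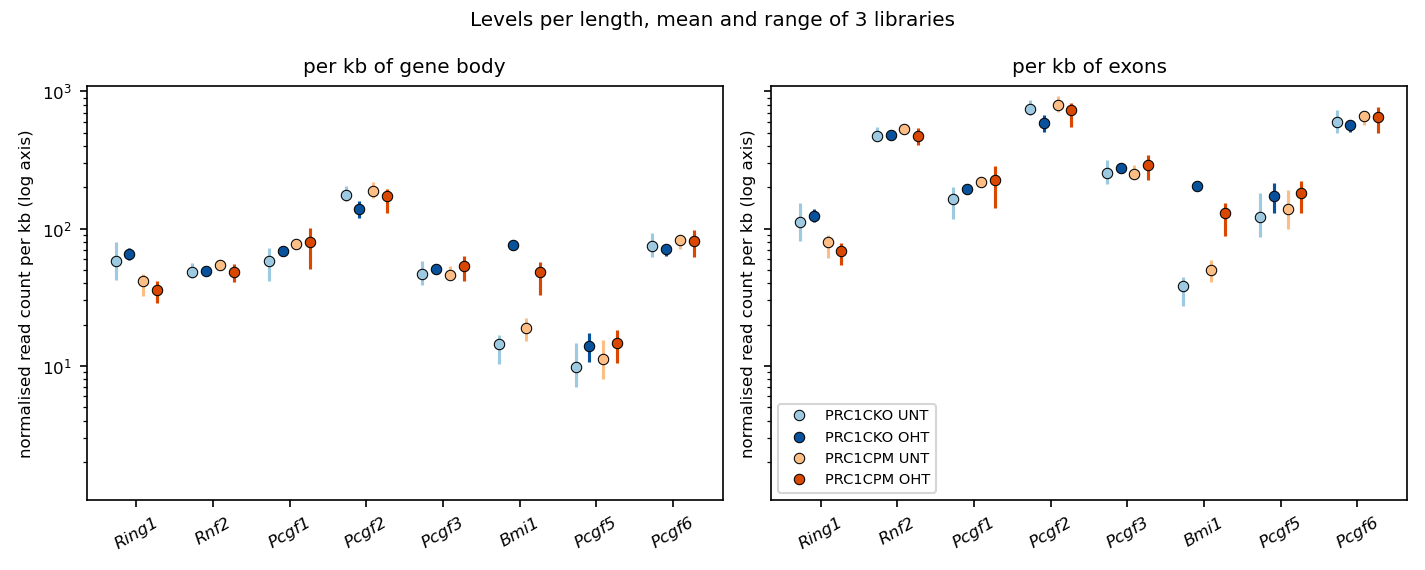
Normalised read count per kb of gene body (left) and per kb of exon (right) of the 8 core genes, on log y axes, with points for the mean and lines for the range of the 3 libraries of each condition. Bmi1 moves from 14.3 to 76.0 per kb of gene body with OHT in PRC1CKO and from 18.8 to 48.3 in PRC1CPM cells, while Pcgf2 stays highest.

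Since each PRC1 complex holds a single PCGF protein, the make-up of the PCGF transcripts was described as the share of each gene in the sum of the 6 levels per kb of gene body, a measure that does not depend on the scale of a library. Bmi1 made up 3.66%, 3.21% and 4.44% of the sum in untreated and 18.2%, 18.9% and 17.2% in OHT-treated PRC1CKO cells. In PRC1CPM cells it made up 3.96%, 4.01% and 5.37% without and 10.3%, 10.1% and 11.6% with OHT. The groups did not overlap in either line, and the share in treated PRC1CKO cells lay above that in treated PRC1CPM cells in every library. Each of these 3 comparisons had a two-sided exact permutation p of 0.1, the smallest that 3 against 3 libraries can give, and 0.218 after adjustment over 24 comparisons.

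The share of Pcgf2 was 46.5% ± 2.87 in untreated and 33.1% ± 2.79 (SD, n = 3) in treated PRC1CKO cells, and 44.1% ± 1.30 and 38.4% ± 1.44 in PRC1CPM cells, again without overlap and with the same smallest exact permutation p of 0.1. Of the 2 canonical genes together, Bmi1 was 7.54% ± 1.45 without and 35.4% ± 2.92 with OHT in PRC1CKO cells, and 9.16% ± 1.72 and 21.8% ± 1.26 in PRC1CPM cells. Per kb of exon, the same share was 4.88% and 25.7% in PRC1CKO and 5.97% and 14.9% in PRC1CPM cells. Over the 5 PCGF genes other than Bmi1, the summed level per kb of gene body had a mean of 365 without and 344 with OHT in PRC1CKO cells (309 to 441 and 313 to 364) and of 406 and 402 in PRC1CPM cells (364 to 462 and 294 to 474), so that the ranges overlapped in both lines. Within these 5, Pcgf2 held 48.3% ± 2.76 without and 40.4% ± 2.99 with OHT in PRC1CKO and 46.2% ± 1.04 and 43.0% ± 1.75 in PRC1CPM cells. Pcgf3 held 12.7% ± 0.525 and 14.8% ± 0.960 in PRC1CKO and 11.3% ± 0.499 and 13.5% ± 0.707 in PRC1CPM cells, and Pcgf5 held 2.63% ± 0.612 and 4.04% ± 0.789 in PRC1CKO and 2.74% ± 0.569 and 3.66% ± 0.149 in PRC1CPM cells. For Pcgf2, Pcgf3 and Pcgf5 the treated and untreated libraries of each line did not overlap. By level, groups did not overlap for 30.6% of all genes in PRC1CKO and 22.4% in PRC1CPM cells. Shares of a fixed sum depend on each other, since a fall of 1 raises the others, and these shares were not tested. Pcgf1 held 15.9% ± 2.32 and 20.2% ± 2.27 in PRC1CKO and 19.3% ± 1.27 and 19.5% ± 2.11 in PRC1CPM cells, with overlap in both lines, and Pcgf6 held 20.4% to 20.6% on average in all 4 conditions.

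**Figure D4:**
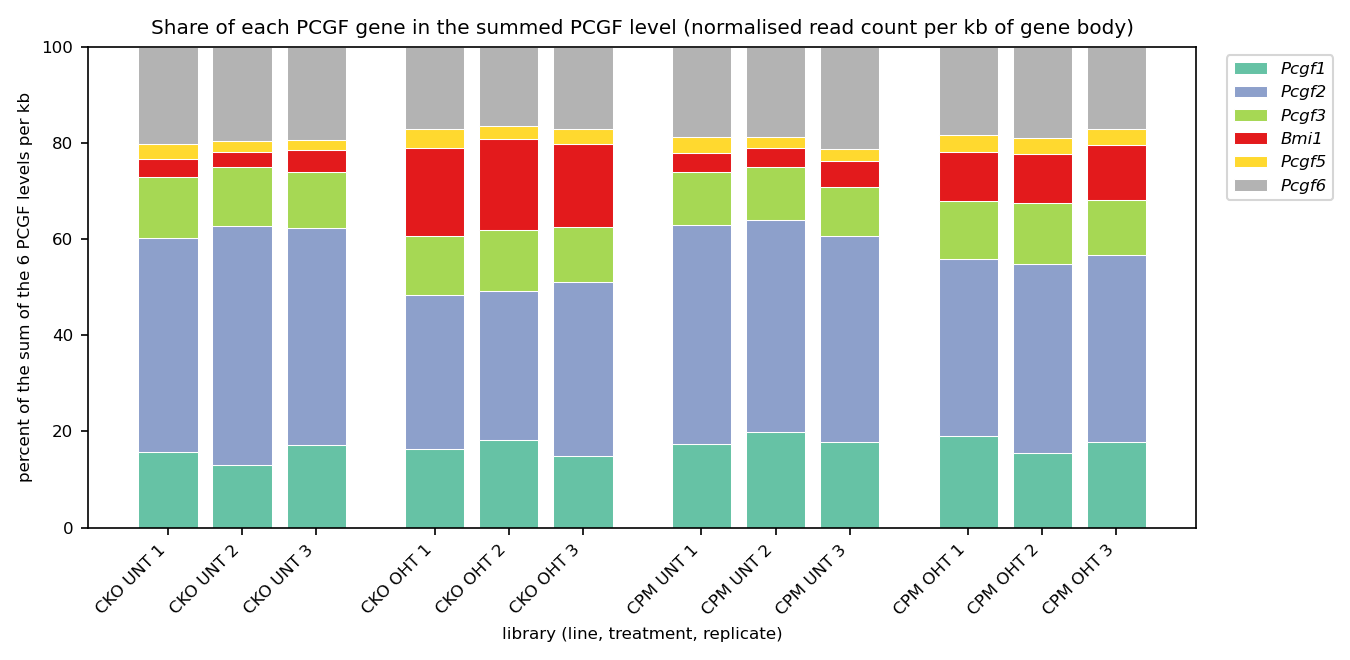
Share of each PCGF gene (percent, y axis) in the summed level of the 6 PCGF genes per kb of gene body, with 1 stacked bar for each library on the x axis. The Bmi1 segment is 3.21% to 5.37% in untreated libraries, 17.2% to 18.9% in OHT-treated PRC1CKO and 10.1% to 11.6% in OHT-treated PRC1CPM libraries.

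The share of Ring1 in the summed level of Ring1 and Rnf2 per kb of gene body was 53.9% ± 4.94 in untreated and 56.9% ± 3.32 in treated PRC1CKO cells, and 43.3% ± 4.04 and 42.7% ± 1.59 in PRC1CPM cells. It lay higher in every PRC1CKO than in every PRC1CPM library under both treatments (exact permutation p = 0.1 each, 0.16 after adjustment over 8 comparisons). It overlapped between treated and untreated cells of each line. Part of the Ring1 body is deleted in PRC1CKO cells alone, and over the bases left (for Rnf2 too after OHT) the PRC1CKO shares were 65.6% ± 4.47 and 67.5% ± 2.96, so the size of the difference between the lines depends on the length used.

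The sequence before the Bmi1 start is printed because the response among the core genes is that of Bmi1. RefSeq (GRCm38.p6) promoter sequences were found for 7 of the 8 genes, all but Pcgf1. The 250 bases before the annotated start of Bmi1, chr2:18676768-18677017 on the plus strand, hold 21 CG dinucleotides, written in capitals.
Bmi1 promoter: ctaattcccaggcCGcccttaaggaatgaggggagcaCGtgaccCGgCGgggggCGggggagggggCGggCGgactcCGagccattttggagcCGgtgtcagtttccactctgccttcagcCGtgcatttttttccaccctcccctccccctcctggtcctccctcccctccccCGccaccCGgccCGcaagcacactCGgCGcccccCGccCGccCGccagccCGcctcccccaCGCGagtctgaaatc
In the window of 300 bases (250 before to 50 after the start), Bmi1 had 23 CG dinucleotides, against a median of 7 over 32851 RefSeq promoter windows. Ring1 had 37, Rnf2 30, Pcgf3 23, Pcgf6 22 and Pcgf2 10, and the 3 windows of Pcgf5 had 34, 5 and 35. The windows of Bmi1 and Ring1 and the Pcgf5 window with 5 lie at the start used in the gene table. The other windows lie at other annotated starts. The letters CACGTG, an E-box that reads the same on both strands, start at base 36 of the printed sequence and occur in the windows of Bmi1 and Pcgf2 among the core genes, and in 7.15% of all windows. The letters TTCCCGCC or GGCGGGAA (an E2F-like motif and its reverse complement) were found in 1 of 3 Pcgf5 windows and in 2.19% of all windows. These are matches of letters and not sites of binding.

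The gene next to Bmi1 was also raised. Commd3 (NM_147778, chr2:18672462-18676216), which encodes a COMM domain protein, ends 801 bases before the Bmi1 start on the same strand. Its normalised read counts were 340, 131 and 182 in untreated and 664, 699 and 582 in treated PRC1CKO cells, and 226, 164 and 286 against 749, 451 and 564 in PRC1CPM cells. The groups did not overlap, with log2 fold changes of 1.68 ± 0.29 (SE, limma adjusted p = 6.61e-06) and 1.38 ± 0.29 (adjusted p = 0.000271). Bmi1 divided by Commd3 was 0.691 ± 0.194 in untreated and 1.13 ± 0.124 in treated PRC1CKO cells, and 0.816 ± 0.0713 and 0.795 ± 0.159 in PRC1CPM cells. Between the treated lines the log2 fold change of Commd3 was -0.17 (adjusted p = 0.969). Whether reads that run on from Commd3 enter the Bmi1 gene body was not tested.

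**Figure D5:**
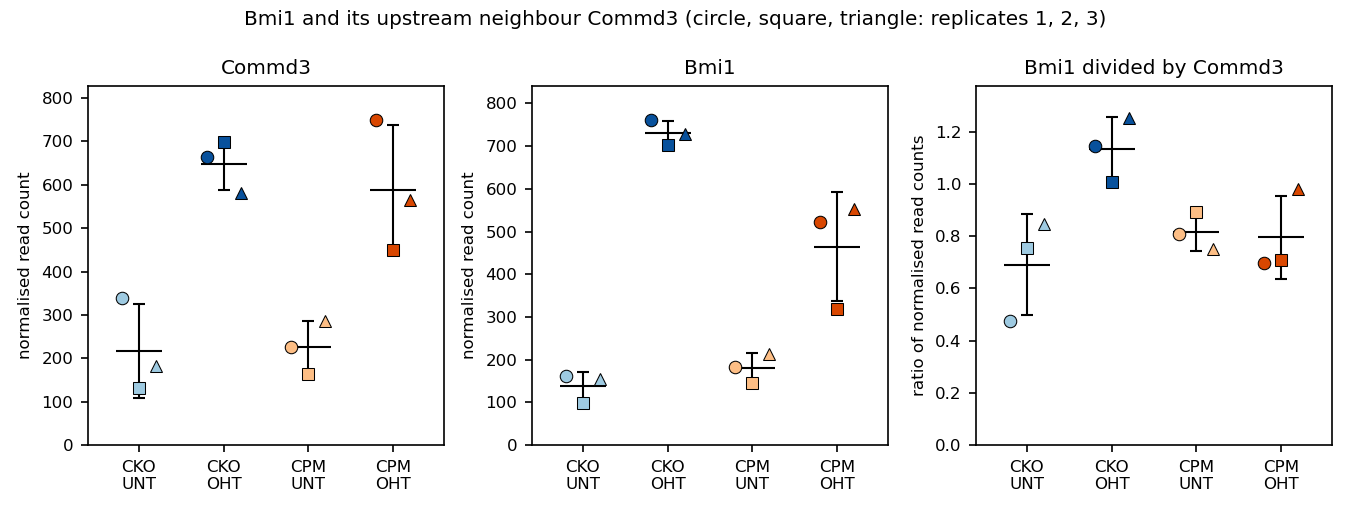
Normalised read counts of Commd3 (left) and Bmi1 (middle) and their ratio (right) in each library, with symbols for replicates 1, 2 and 3, long bars for means and error bars for the SD. Both genes lie higher in every OHT-treated than in every untreated library of their line, and the ratio lies between 1.005 and 1.25 in treated PRC1CKO and between 0.474 and 0.979 in the other libraries.

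Within 10 kb, 5 of the 8 core genes had other rows of the gene table, 9 in all, of which 0 overlapped a core gene and 8 were tested. Beside Commd3, the neighbours Tlx2 and Ina were called in PRC1CKO cells, where 19.5% of all genes were, and Commd3 alone in PRC1CPM cells, where 14.5% were. Tlx2, a homeobox gene 8164 bases from Pcgf1, had means of 0.993 and 23.7 (log2 fold change 3.96, limma adjusted p = 7.47e-06), with few reads in untreated cells, and in PRC1CPM cells 7.93 and 12.3 (0.60, adjusted p = 0.738). Ina, a neuronal intermediate filament gene 9272 bases from Pcgf6, had 403 and 166 in PRC1CKO (-1.24, adjusted p = 0.000492) and 417 and 272 in PRC1CPM cells (-0.59, adjusted p = 0.186). The core genes beside these neighbours, Pcgf1 and Pcgf6, were not called.

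The genes whose pattern over the 12 libraries was most like that of Bmi1, by the root mean square difference of centred log2 levels among 16932 genes, were Mael (0.203), Taf7l (0.217) and Ecel1 (0.240). Mael, a piRNA pathway gene of the germline, had log2 fold changes of 2.20 in PRC1CKO and 1.35 in PRC1CPM cells. Taf7l, a germ cell relative of a TFIID subunit, had 2.21 and 1.79, and Ecel1, a neuronal endopeptidase gene, 2.26 and 1.43. Commd3 was at rank 54 with 0.355.

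The proteins that bind the core were examined as lists. Of 10 canonical PRC1 partners, 9 were tested (Cbx6 was not analysed here), of which 3 were called higher and 2 lower in PRC1CKO and 3 higher and 1 lower in PRC1CPM cells, where 16.5% and 3.09% and 13.1% and 1.4% of all genes were called higher and lower. The median log2 fold changes were 0.51 and 0.33, beside 0.12 and 0.10 over all genes. Cbx8, a chromodomain subunit, went from a mean of 11.3 to 90.5 in PRC1CKO (log2 fold change 2.86, limma adjusted p = 5.69e-06) and from 12.2 to 77.4 in PRC1CPM cells (2.87, adjusted p = 1.12e-05). Phc2, which encodes a polyhomeotic subunit, rose by 0.70 (adjusted p = 0.0223) and 0.78 (adjusted p = 0.0123).

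Phc1, another polyhomeotic gene, fell from 9976 to 3367 in PRC1CKO (log2 fold change -1.52, limma adjusted p = 1.15e-07) and from 15371 to 6848 in PRC1CPM cells (-1.17, adjusted p = 4.26e-05). Cbx7, the main chromodomain subunit of ESCs, fell in PRC1CKO cells (-0.64, adjusted p = 0.0255) and had -0.33 (adjusted p = 0.407) in PRC1CPM cells. Thus, beside Bmi1, canonical PRC1 genes were called in opposite directions. Between the treated lines, Phc1 (1.00, adjusted p = 0.00457) and the sex comb gene Scml2 (1.41, adjusted p = 0.000842) were called higher in PRC1CPM cells. The share of all genes called higher there was 1.25%. Scml2 was also higher in untreated PRC1CPM cells (1.93).

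Of 23 variant PRC1 partners, 4 were called higher and 0 lower in each line, near the 16.5% of all genes called higher in PRC1CKO and 13.1% in PRC1CPM cells. The list had median log2 fold changes of 0.14 and 0.21, beside 0.12 and 0.10 over all genes. Bcor, the corepressor that binds PCGF1, went from 916 to 3863 in PRC1CKO (2.08, limma adjusted p = 5.49e-11) and from 859 to 2589 in PRC1CPM cells (1.60, adjusted p = 1.36e-07), and its homologue Bcorl1 had 0.91 (adjusted p = 0.00249) and 0.86 (adjusted p = 0.00651). E2f6, a repressive E2F protein of the PCGF6 complex, had 0.93 (adjusted p = 0.00254) and 0.83 (adjusted p = 0.00982), and Auts2, of the PCGF3 and PCGF5 complexes, 1.05 (adjusted p = 0.000109) and 0.87 (adjusted p = 0.00205). The other 19, with Rybp, Yaf2 and Kdm2b among them, were not called in either line.

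For PRC2, which methylates histone H3 at lysine 27, 2 of 14 genes were called higher and 1 lower in each line, near the background of 16.5% higher and 3.09% lower in PRC1CKO and 13.1% and 1.4% in PRC1CPM cells. These were Jarid2 (0.72 and 0.66) and Epop (0.95 and 0.84), accessory subunits, and Lcorl (-0.59 and -0.61), with limma adjusted p of 0.0464 or less. The catalytic genes Ezh1 and Ezh2 and the core genes Eed and Suz12 were not called. Of 6 genes of H2AK119 deubiquitination (deubiquitinases and their partners), Asxl3, a partner of the deubiquitinase BAP1, was called higher in both lines (0.95 and 0.91) and the other 5 were not. This is near the 16.5% of all genes called higher in PRC1CKO and 13.1% in PRC1CPM cells.

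The labelled cell type was checked with its markers. All 9 ESC markers in the table were above 0 in every library, with summed normalised read counts of 100202, 66240 and 74989 in untreated and 59809, 58579 and 67842 in treated PRC1CKO cells. In PRC1CPM cells the sums were 80628, 56189 and 70567 without and 75841, 43172 and 74160 with OHT, and Tdgf1 had the highest count of them in each library. Sox2 (-0.89, limma adjusted p = 0.00051) and Utf1 (-0.79, adjusted p = 0.00643) were called lower in PRC1CKO cells, where 3.09% of all genes were, and 0 of 9 were called in PRC1CPM cells by limma. Between untreated lines, Tfcp2l1 was called lower in PRC1CPM cells (-0.88, adjusted p = 0.00798), where 0.478% of all genes were.

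Markers of primitive endoderm moved with Bmi1 after OHT treatment. Of 8, 7 were tested, and 5 were called higher in PRC1CKO and 7 in PRC1CPM cells, where 16.5% and 13.1% of all genes were, with Pdgfra the most abundant. Their summed level was 1802, 1019 and 650 in untreated and 4380, 3361 and 3131 in treated PRC1CKO cells, and 818, 711 and 695 against 2314, 1532 and 2012 in PRC1CPM cells, with at most 1 marker at 0 in a library. Between the treated lines, Gata6 and Pdgfra were called lower in PRC1CPM cells, the direction of Bmi1 there, and 0.218% of all genes were called lower. Between the untreated lines the 7 markers tested had lower values in PRC1CPM cells (log2 fold changes of -2.26 to -0.20), where Bmi1 had 0.41. Of these 7, 1 was called lower, Sox7, where 0.478% of all genes were. Of 8 trophoblast markers, 6 were in the table and 5 tested. Of these, 3 were called higher and 1 lower (Tfap2c) in PRC1CKO and 4 higher in PRC1CPM cells. Of all genes, 16.5% and 13.1% were called higher in PRC1CKO and PRC1CPM cells, and 3.09% lower in PRC1CKO cells. The summed level of the trophoblast markers, led by Tfap2c, was 1616 ± 208 and 1580 ± 213 in PRC1CKO and 1121 ± 69.3 and 1756 ± 382 in PRC1CPM cells. Of 8 fibroblast markers, 6 were tested, and Thy1 was called higher and Postn lower in PRC1CKO and 0 in PRC1CPM cells, against 19.5% and 14.5% of all genes called in either direction. In PRC1CPM relative to PRC1CKO cells, Col1a1 was called higher between the treated lines (log2 fold change 1.44, limma adjusted p = 0.0203) and Col1a2 between the untreated lines (1.38, adjusted p = 0.00810). Of all genes, 1.25% and 2.21% were called higher in these comparisons. The sum of the 8 markers, led by Col1a1, was 6794 ± 2786 and 7123 ± 607 in PRC1CKO and 11128 ± 7118 and 12014 ± 6238 in PRC1CPM cells, where replicate 1 stood apart with 19325 before and 19110 after treatment against 6509 to 9532 in the other 4 libraries, with at most 2 of 8 markers at 0 in a library and Lum at 0 in the 3 untreated PRC1CKO and the 3 OHT-treated PRC1CPM libraries. These markers are developmental genes as well as signs of other cells, and their part in the rise of Bmi1 was not tested.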

How the data were processed

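The 12 cRNA-seq libraries were assigned to conditions from their labels. The 12 gDNA samples of the series were not used here. The authors discarded rDNA reads (Bowtie 2), aligned the remainder to mm10 and dm6 (STAR, then Bowtie 2), kept unique alignments, dropped PCR duplicates (Sambamba) and counted over gene bodies (SAMtools, custom scripts). The use of strand in counting is not given in the sources used here. The deposited signal is the read count of a gene body divided by 1 spike-in size factor per library. The deposited table also holds 8 columns of the authors' own DESeq2 comparisons (log2 fold changes and adjusted p-values), which were not used.

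In every library 100% of values were whole multiples of 1 step (tolerance 0.02 read), which gave reads and depth (14668159 to 27016156 on genes). The main test was limma 3.58.1 (R 4.3.3) on log2(normalised read count + 1), with 1 mean per condition, no block and moderation along a mean-variance trend. Rows needed 10 reads or more in 3 libraries or more, and p-values were adjusted over these 16940 genes by the Benjamini-Hochberg method. This scale understates changes of low genes. A call needed an adjusted p below 0.05 and more than 1.5-fold, and for the interaction the p alone. Genes were set beside each other per kb of gene body, or of RefSeq exons (GRCm38). Shares were compared by exact permutation tests, whose smallest two-sided p is 0.1 with 3 against 3 libraries. Replicates are biological per the study, and p-values measure the spread between these 12 libraries. Deviations from the condition means of same-numbered libraries correlated above 0.1 in each of the 3 pairs of the PRC1CPM treatment comparison, the treated lines and the untreated lines, and in 17 of all 18 pairs (0.0988 for replicate 2 of PRC1CKO cells). Values with the replicate number as a block are thus given beside the PRC1CPM, treated-line and untreated-line comparisons and the interaction where they change a call or a count. They are also given for the OHT responses of Pcgf2 in PRC1CKO cells and of Pcgf5 in both lines. The labels do not say what a number marks. The comparisons share libraries, so no overlap between them was tested. Promoter windows on chromosome 18 were left out.

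Named genes were the 8 core genes, list members called in a comparison, table rows within 10 kb of a core gene, and the 3 genes most like Bmi1 in pattern. The values of 1 further list member are not reported here. The core genes and lists were chosen with earlier results of these data known. Alternatives were DESeq2 1.42.0 and edgeR 4.0.16 on recovered reads, TMM, no filter, a pseudocount of 0.1, a replicate block, the 6 libraries of a line alone, exon lengths, each library left out and, chosen after seeing the data, the length of Ring1 and Rnf2 outside the deleted intervals. The fits were tested on simulated data. Summaries and plots used Python 3.11.15 (matplotlib 3.10.9, scipy 1.17.1, pandas 2.3.3, numpy 2.4.6).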

Additional observations from a re-analysis of the deposited data

How the results depend on the processing

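The rise of Bmi1 was called under all 19 alternatives in each line, with log2 fold changes of 2.21 to 2.56 in PRC1CKO (highest adjusted p 4.54e-07, without the filter) and 1.19 to 1.58 in PRC1CPM cells (highest adjusted p 0.00631, without replicate 3 of the treated cells). The fits without a library of the other line, without the filter, with the block or with the line alone keep the main log2 fold change by construction. They vary its adjusted p alone. Every core gene had 1 row, so no other rows of a symbol could be tried. TMM moved the median of all genes by -0.10 to -0.12 in the 4 pairwise comparisons. With TMM, Rnf2 had -0.092 in PRC1CKO cells, Pcgf2 had -0.013 between the untreated lines, and between the treated lines Pcgf3 had -0.046, Pcgf5 -0.032, Ring1 -0.96 and Bmi1 -0.79. Pcgf1 in PRC1CPM cells had 0.033 with DESeq2 and 0.034 with edgeR. At less than 1.5-fold, TMM gave limma adjusted p of 0.00381 for Pcgf2 in PRC1CKO cells (-0.45) and 0.0481 for Rnf2 in PRC1CPM cells (-0.28). For Ring1 between the untreated lines, the alternatives that kept all libraries gave -0.57 to -0.46, with a lowest adjusted p of 0.0496. The cause of these changes was not tested.

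Counts of genes called also moved. In PRC1CKO cells, 1133 genes were lower with TMM, and in PRC1CPM cells 594. Between the treated lines, 345 were higher with DESeq2, 523 with TMM and 136 without the filter, and 85 were lower with DESeq2, 59 with edgeR, 260 with TMM, 21 without the filter and 24 with a pseudocount of 0.1. Between the untreated lines, 744 were higher with TMM and 243 without the filter, and 305 lower with TMM. The interaction was lower for 15 genes with DESeq2, 14 with TMM, 0 without the filter and 1 with a pseudocount of 0.1.

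With replicate numbers as a block, 823 genes were lower in PRC1CKO and 461 in PRC1CPM cells, 1131 were higher and 232 lower between the treated lines, 1631 and 253 between the untreated lines, and the interaction was higher for 78 and lower for 246. Under the block, Ring1 (-0.86, adjusted p = 0.000393) and Bmi1 (-0.69, adjusted p = 0.00166) passed the threshold between the treated lines, and so did the interaction of Bmi1 (-1.10, adjusted p = 0.00164, limma). The block changed no other call on the core genes, though Pcgf5 after OHT had adjusted p of 0.000481 in PRC1CKO and 0.0195 in PRC1CPM cells under it, and Pcgf2 0.0388 in PRC1CKO cells, all at less than 1.5-fold. Each of the 12 libraries correlated best with libraries of its own number, a hint from the data and not the design.

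With each library left out in turn, genes called higher and lower numbered 2016 to 3729 and 326 to 674 in PRC1CKO, 1439 to 2547 and 123 to 339 in PRC1CPM, 81 to 399 and 17 to 78 between the treated lines, 170 to 1492 and 46 to 105 between the untreated lines, and 0 to 1 and 1 to 28 for the interaction. Core gene values that crossed 0 ranged from -0.039 to 0.13 (Rnf2) and -0.18 to 0.098 (Pcgf6) in PRC1CKO cells, where Pcgf5 had 0.35 to 0.88. In PRC1CPM cells they were -0.22 to 0.28 (Pcgf1), -0.24 to 0.052 (Pcgf2) and -0.19 to 0.13 (Pcgf6). Between the treated lines they were -0.14 to 0.063 (Rnf2), -0.046 to 0.45 (Pcgf1), -0.077 to 0.23 (Pcgf3) and -0.11 to 0.29 (Pcgf5). Between the untreated lines they were -0.012 to 0.21 (Pcgf2), -0.12 to 0.17 (Pcgf3) and -0.028 to 0.55 (Pcgf5). For the interaction they were -0.49 to 0.0044 (Pcgf1), -0.12 to 0.23 (Pcgf3), -0.48 to 0.098 (Pcgf5) and -0.15 to 0.20 (Pcgf6).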
